A study of Homo sapiens with 12 samples.

Results

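The 6 arrays of the Hodgkin lymphoma line L-1236, out of 12 arrays in the series, did not carry equal levels of interferon-induced mRNA. The arrays were chosen by measured values: they were parted by the mean log2 level of 8 interferon-induced genes (IFIT1, IFIT2, IFIT3, MX1, OAS1, OAS2, IFI44 and IFI6) into the 3 arrays with the higher mean, called interferon-high, and the 3 with the lower mean, called interferon-low. The parting crosses the labels of the study. The interferon-high arrays are the control array 3 and the knockdown arrays 1 and 2, and the interferon-low arrays are the control arrays 1 and 2 and the knockdown array 3. Because measured values parted the arrays, every high against low value from L-1236 is a description and carries no test. The 6 arrays of the second line, U-HO1, had no part in the choice and were tested.

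Both lines derive from Hodgkin lymphoma, a tumour of B-cell origin whose malignant cells have lost most of the B-cell programme. Each line received, by transduction, either an shRNA targeting GATA-3 (labelled siGATA-3, here knockdown) or a non-functional control shRNA (labelled siSCR, here control). All arrays share the transduction, 3 days of culture afterwards, a sort for GFP-positive cells and RNA from 25000 sorted cells, which was amplified before hybridization to an Affymetrix whole-transcript array. The medium was RPMI 1640 for L-1236 and IMDM for U-HO1, and each line has 3 arrays per label, described by the submitters as independent samples. In bulk RNA of this kind, fewer responding cells and less RNA per responding cell cannot be told apart. The same text names no clone, no vector promoter and no interferon treatment.

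Interferons are secreted cytokines that cells release on sensing foreign or misplaced nucleic acid. Type I and type III interferons bind receptors coupled to the kinases JAK1 and TYK2, whose signal leads to a complex with IRF9 that binds the interferon-stimulated response element in the promoters of many genes. Interferon gamma acts at the gamma-activated site. The induced proteins degrade viral RNA, block translation and particle assembly, raise the sensors of RNA and DNA, load peptides on MHC class I and, through USP18 and SOCS proteins, damp the signal.

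The core of the response element is a pair of GAAA repeats with any 2 bases between them, which reads as TTTC repeats on the other strand. Of 18404 genes named on the array, 14230 have a RefSeq promoter (GRCh38.p14), and 366 of these, 2.57%, hold the motif on either strand within 250 bases upstream of the gene start. Among 59 genes with a promoter that were higher in the interferon-high arrays without overlap and by at least 1.5-fold, leaving out the 8 genes of the rule, 23 hold it (39.0%). Of these 59, 22 are outside the lists of interferon and MHC class I genes, and 3 of the 22 hold it (13.6%). It is in 4 of 6 promoters found for the 8 genes of the rule and in 0 of 12 found for the genes that were lower by the same criteria. The shorter gamma-activated site TTCNNNGAA, read on both strands, can overlap the former and is in 6.15% of all promoters, in 7 of those 59 (11.9%) and in 0 of the 12. A match is a description of letters, not a binding site. The sequences below are those of IFIT1, of the 4 genes in the interferon lists and of the 2 genes outside them that hold the motif and have the largest differences between the groups. They are written 5′ to 3′ on the strand of the gene, and the capitals mark the whole matches of the GAAA pair in the window.
IFIT1 (chr10:89392500-89392549, + strand): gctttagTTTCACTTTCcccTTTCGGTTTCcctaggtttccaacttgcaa
IFIT5 (chr10:89414529-89414567, + strand): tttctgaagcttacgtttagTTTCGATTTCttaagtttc
SAMD9 (chr7:93118086-93118135, - strand): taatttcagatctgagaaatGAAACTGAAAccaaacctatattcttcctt
HERC5 (chr4:88457025-88457074, + strand): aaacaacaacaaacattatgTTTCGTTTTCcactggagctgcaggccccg
OAS3 (chr12:112938442-112938473, + strand): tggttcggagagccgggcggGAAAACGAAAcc
TNFSF10 (chr3:172523588-172523637, - strand): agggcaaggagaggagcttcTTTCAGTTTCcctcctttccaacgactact
LAP3 (chr4:17576995-17577044, + strand): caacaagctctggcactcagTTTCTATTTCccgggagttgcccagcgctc

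The values are log2 levels, so a difference of 1 is a doubling and 1.5-fold is the size limit used for a gene to be called. They span 3.86 to 13.99 over 32321 probe sets, and log2 was inferred from this range. Array medians lay between 6.96 and 7.09 in L-1236, and the high and low groups had mean medians of 7.03 ± 0.03 and 7.03 ± 0.07 (SD, n = 3 each). The control array 1 had the narrowest spread over probe sets (SD 1.62, against 1.66 to 1.72 on the other L-1236 arrays). Correlations between L-1236 arrays ran from 0.9926 to 0.9936 within the high group, from 0.9864 to 0.9934 within the low group and from 0.9881 to 0.9928 between them.

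The 8-gene mean was 9.21 on knockdown array 1, 10.40 on knockdown array 2 and 10.53 on control array 3. It was 7.73 on control array 1, 7.34 on control array 2 and 8.44 on knockdown array 3. The high group thus averaged 10.05 ± 0.73 and the low group 7.84 ± 0.55 (SD, n = 3 each). The arrays form a graded series rather than a pair of tight groups: 0.78 separates the lowest high array, knockdown 1, from the highest low array, knockdown 3. The 6 U-HO1 arrays had 8-gene means of 7.72 to 8.13, with an average of 7.90 ± 0.16 (SD, n = 6), so their whole range of 0.41 is smaller than that gap.

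**Figure D1:**
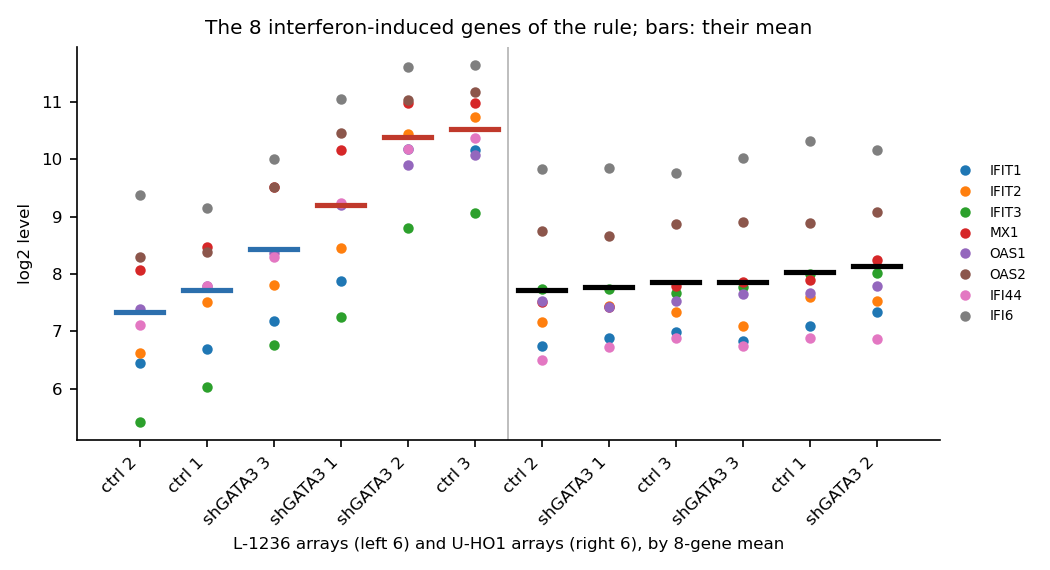
Log2 level (vertical axis) of each of the 8 genes of the rule (coloured points) on every array, with the 6 L-1236 arrays on the left and the 6 U-HO1 arrays on the right, each ordered by the 8-gene mean (bars; red for interferon-high, blue for interferon-low, black for U-HO1). ctrl marks arrays labelled control and shGATA3 arrays labelled knockdown; the L-1236 means climb from 7.34 to 10.53, while U-HO1 means stay between 7.72 and 8.13.

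IFIT1, which binds viral RNA lacking host cap methylation, had log2 levels of 7.88, 10.19 and 10.17 on the high arrays knockdown 1, knockdown 2 and control 3. Its levels on the low arrays control 1, control 2 and knockdown 3 were 6.69, 6.45 and 7.18. The groups did not overlap for any of the 8 genes, as the rule makes likely, and the differences ran from 1.88 for OAS1, a synthetase of the RNase L activator, to 2.64 for IFIT1, with a median of 2.18. Within the control arrays the median difference of the 8 genes was 2.88, and within the knockdown arrays it was 1.30. These values chose the arrays and support nothing further.

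GATA3, the target of the shRNA, did not follow its label in L-1236. Its log2 level was 10.29, 10.69 and 9.95 on control arrays 1, 2 and 3 and 10.80, 10.00 and 10.24 on knockdown arrays 1, 2 and 3, so the highest of the 6 values is on an array labelled knockdown. Arrays are therefore named by their label, and no direction is drawn from it. The high arrays had 10.25 ± 0.48 and the low arrays 10.40 ± 0.24 (SD, n = 3 each), and the groups overlapped. In U-HO1, GATA3 and the 8-gene mean had a Pearson r of -0.262 (exact permutation p = 0.556) and a Spearman rho of -0.371 (exact permutation p = 0.497) over 6 arrays, both two-sided. Without the 2 arrays farthest from the median of the 8-gene mean, r was -0.892 (exact permutation p = 0.25, n = 4), so no relation was shown at this number of arrays.

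Across all probe sets, 1437 (4.45%) had higher levels on each high array than on any low array and 1712 (5.3%) had lower levels on each. Adding the size limit of 1.5-fold left 113 higher (0.35%) and 35 lower (0.108%). With 1 probe set per gene these are 83 genes higher (0.451%) and 16 lower (0.0869%) of 18404. Non-overlap of the groups by itself gives each of them the same sign within the control arrays and within the knockdown arrays. By non-overlap alone, without the size limit, 5.6% of named genes were higher and 4.25% lower. Any parting of the arrays into equal groups leaves some probe sets without overlap. Such shares alone therefore show no link to the interferon state, and counts without overlap in the lists below are to be read against them. Among genes without overlap, doubling or more was reached by 37 higher, 29 of them beyond the 8 of the rule, and by 0 lower. Leaving out single arrays changed the count of lower probe sets. It was 255 without control array 1, 20 without control array 2 and 88 without control array 3. It was 59 without knockdown array 1 and 80 without knockdown array 2. The count of higher probe sets was 170 without knockdown array 1 and 178 without knockdown array 3. Non-overlap is easier to meet with fewer arrays, so counts above 113 and 35 do not by themselves measure the influence of the array left out.

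Of the 75 genes called higher beyond the 8, 51 belong to the lists of interferon pathway and MHC class I genes and 24 do not. This does not place the 24 outside the interferon response, since the lists are not exhaustive. Of these 75, 50 also put the arrays in the order of the 8-gene mean, with knockdown array 2 and control array 3 above knockdown array 1, and knockdown array 3 above control arrays 1 and 2. Over all probe sets 297 did so (0.919%), all of them among the 1437 higher without overlap, a condition that the 75 already meet. Of the 16 genes called lower, 1 showed the reverse of that order.

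**Figure D2:**
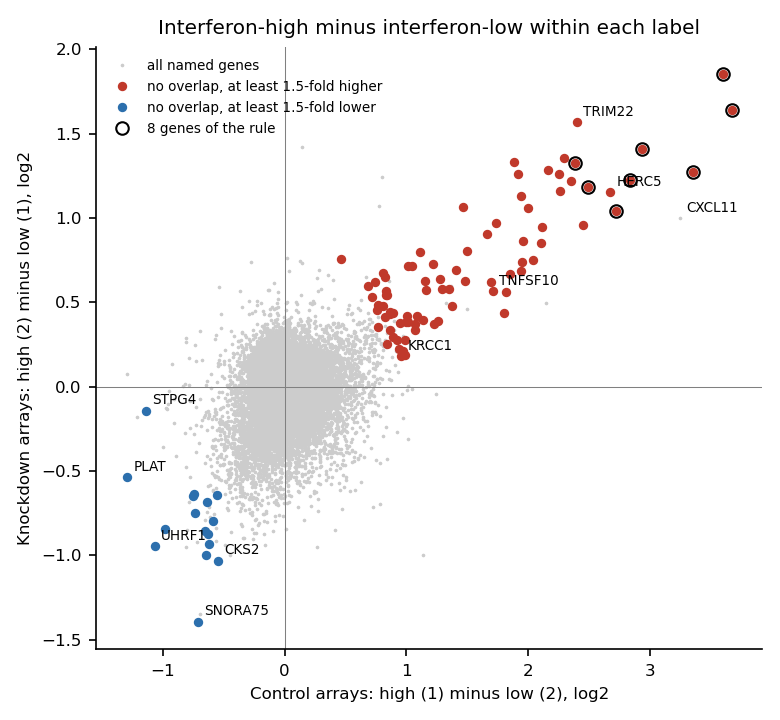
Difference between interferon-high and interferon-low arrays for every named gene (points), within the arrays labelled control (horizontal axis, log2, 1 high against 2 low) and within those labelled knockdown (vertical axis, log2, 2 high against 1 low). Red and blue points are the 83 and 16 genes whose groups do not overlap and differ by at least 1.5-fold, and open circles mark the 8 genes of the rule; the calls by construction lie in the quadrants of equal sign, and the median of the 75 called higher beyond the 8 is 1.15 on the control axis and 0.58 on the knockdown axis.

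Antiviral effectors are the proteins that act on virus directly. Of 55 measured beyond the 8, 45 were higher without overlap and 0 lower, 31 were called higher, and their median difference was 0.77, against -0.00060 over all named genes. TRIM22, a ubiquitin ligase that restricts retroviruses, led them with 7.51, 8.24 and 8.43 on knockdown 1, knockdown 2 and control 3 against 6.05, 6.01 and 6.31 on control 1, control 2 and knockdown 3. That is a difference of 1.94 (SE 0.22), or 3.83-fold. IFIT5, a relative of IFIT1 that binds RNA with a 5′ phosphate, had 8.39, 8.49 and 8.66 on the high arrays and 6.43, 6.29 and 7.09 on the low arrays, a difference of 1.91 (SE 0.19).

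SAMD9 and SAMD9L, neighbouring genes for restriction factors that stop protein synthesis, differed by 1.88 and 1.53. SAMD9 had 10.53, 10.36 and 10.72 on the high arrays and 8.41, 8.33 and 9.22 on the low arrays, so that knockdown array 3 lies between the others. XAF1, a pro-apoptotic antagonist of XIAP, differed by 1.83, with 8.44 and 8.54 on control arrays 1 and 2, 9.61 on knockdown array 3 and 10.44 to 10.94 on the high arrays. OAS3 differed by 1.77 and OASL, a catalytically inactive relative of the OAS enzymes, by 1.60. OASL was at 7.92 on knockdown array 1, close to the 7.44 of control array 1, while knockdown array 2 and control array 3 reached 9.23 and 9.47. PARP14, a mono-ADP-ribosyl transferase, differed by 1.53, IFI44L by 1.52 and MX2, a restriction factor of HIV at the nuclear pore, by 1.51.

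Several textbook members of the response did not separate the groups. IFITM3, a block to viral entry, differed by -0.06, IFI27 by 0.01 and CMPK2, a mitochondrial nucleotide kinase, by 0.02, all with overlapping groups. RSAD2, the antiviral enzyme viperin, differed by 0.62, but its 6.16 on knockdown array 1 lay below the 6.25 of control array 1. These 4 genes were chosen after their values were seen. No detection calls were used here, so absent signal and absent transcript cannot be told apart for the dim ones.

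ISG15 is a ubiquitin-like modifier, and all 6 measured genes of its conjugation cycle were higher without overlap, 5 of them called, with a median of 0.93. HERC5, the ligase that attaches ISG15, had 8.01, 9.45 and 9.82 on knockdown 1, knockdown 2 and control 3 against 7.24, 7.06 and 7.58 on the low arrays, a difference of 1.80 (SE 0.41). USP18, which removes ISG15 and also silences the type I receptor, had 9.72, 10.27 and 10.20 against 8.52, 8.11 and 8.67, a difference of 1.63 (SE 0.18). UBA7, the activating enzyme, differed by 0.97, and ISG15 itself by 0.88 (8.22 to 8.84 against 7.53 to 7.91).

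Genes that detect nucleic acid were divided. Of 21 measured, 10 were higher without overlap, 8 of them called, 1 was lower and 10 overlapped, with a median of 0.22. The RNA sensors RIGI and IFIH1 differed by 1.33 and 1.31, and DDX60, an RNA helicase that assists them, by 1.54. RIGI had 9.12, 9.70 and 10.05 on the high arrays and 8.10, 8.10 and 8.67 on the low arrays. IFI16, a DNA sensor, differed by 1.43, with 9.01 on knockdown array 3 and 7.96 and 8.06 on control arrays 1 and 2. CGAS, the cytosolic DNA sensor upstream of STING, which was picked after its values were seen, overlapped with a difference of -0.07.

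**Figure D3:**
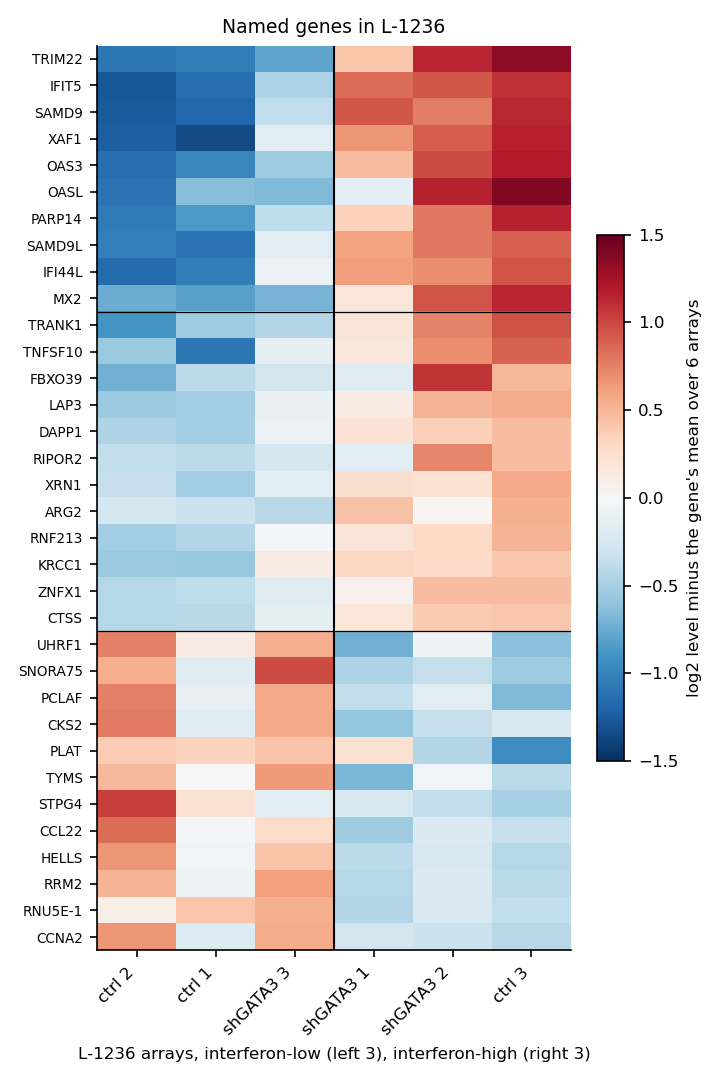
Log2 level minus the mean of the gene over the 6 L-1236 arrays (colour scale) for 10 antiviral effectors (top block), the 12 genes outside the interferon and MHC class I lists with the highest differences (middle) and the 12 with the lowest (bottom), arrays in the order of their 8-gene mean. The 3 arrays left of the vertical line are interferon-low and the 3 to its right interferon-high; knockdown array 3 (shGATA3 3) is intermediate for SAMD9L and IFI44L, and control array 1 (ctrl 1) is paler than the other low arrays for most genes of the bottom block, though not for PLAT, STPG4 or RNU5E-1.

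The interferon genes themselves differed little. Of 16 measured, 3 were higher without overlap, 0 were lower and 0 were called. IFNL1, a type III interferon, had 6.89, 7.13 and 7.53 on the high arrays against 6.87, 6.86 and 6.70 on the low arrays, a difference of 0.37 (SE 0.15). IFNL2 differed by 0.32 and IFNL3 by 0.16, also without overlap, and these near-identical genes can share signal. IFNB1, the first type I interferon made on sensing, ranged from 5.48 to 5.76 on the high arrays and from 5.40 to 5.61 on the low arrays, a difference of 0.13 with overlap.

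Of 6 receptors 1 and of 5 signal transducers 2 were higher without overlap, with medians of 0.09 and 0.23, and 0 were called. All 5 transducers had a higher mean on the high arrays, and their list mean did not overlap (9.71 to 9.81 against 9.38 to 9.60). IL10RB, the chain shared by the interleukin 10 and type III interferon receptors, was the only receptor of 6 without overlap (8.91 to 9.19 against 8.46 to 8.88, a difference of 0.46). IRF9 differed by 0.57, with 9.16, 9.17 and 9.34 on the high arrays and 8.55, 8.49 and 8.93 on the low arrays, and STAT3 by 0.42 (10.91 to 10.96 against 10.45 to 10.65). JAK1 and JAK2 overlapped.

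IRF7 and IRF1 were the 2 interferon regulatory factors called higher, of 7 measured. IRF7, the amplifier of type I interferon transcription, had 8.46, 8.75 and 8.64 on the high arrays and 8.09, 7.70 and 7.99 on the low arrays, a difference of 0.69 (SE 0.12). IRF1, which acts downstream of interferon gamma and NF-kB, differed by 0.67 (SE 0.18). Among 10 brakes of the pathway, only USP18 was called. SOCS1, the feedback inhibitor of JAK kinases, differed by 0.21 with overlap, since knockdown array 3 (9.83) stood above knockdown array 2 (9.66).

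Guanylate-binding proteins and other genes linked to interferon gamma were higher in 12 of 16 cases without overlap, 7 of them called, with a median of 0.57. GBP4 had 8.23, 8.63 and 9.11 on the high arrays and 6.99, 6.91 and 7.14 on the low arrays, a difference of 1.64 (SE 0.20). GBP5, which promotes inflammasome assembly, differed by 1.10, and APOL1, a trypanosome-lytic lipoprotein component, by 0.85. The T-cell attracting chemokine CXCL11, picked after its values were seen, differed by 2.03 and yet overlapped, with 9.07 and 9.24 on knockdown array 2 and control array 3, 6.62 on knockdown array 1 and 6.85 on knockdown array 3. CXCL10, which binds the same receptor, was at 11.23 to 11.64 on the high arrays and 10.21 to 11.23 on the low arrays, a difference of 0.63 (SE 0.26).

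Antigen presentation genes had smaller differences. Of 15 MHC class I pathway genes 5 were higher without overlap and 1 was called, NLRC5, the transactivator of class I genes, with 8.64, 8.56 and 8.99 against 8.24, 8.06 and 8.05. The class I median was 0.32. TAP1, a subunit of the peptide transporter, and PSMB10, an immunoproteasome subunit, each differed by 0.38. Of 11 class II genes 3 were higher without overlap, led by the invariant chain protease CTSS (0.65) and by HLA-DOB (0.53), whose second probe set differed by only 0.16 and overlapped.

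**Figure D4:**
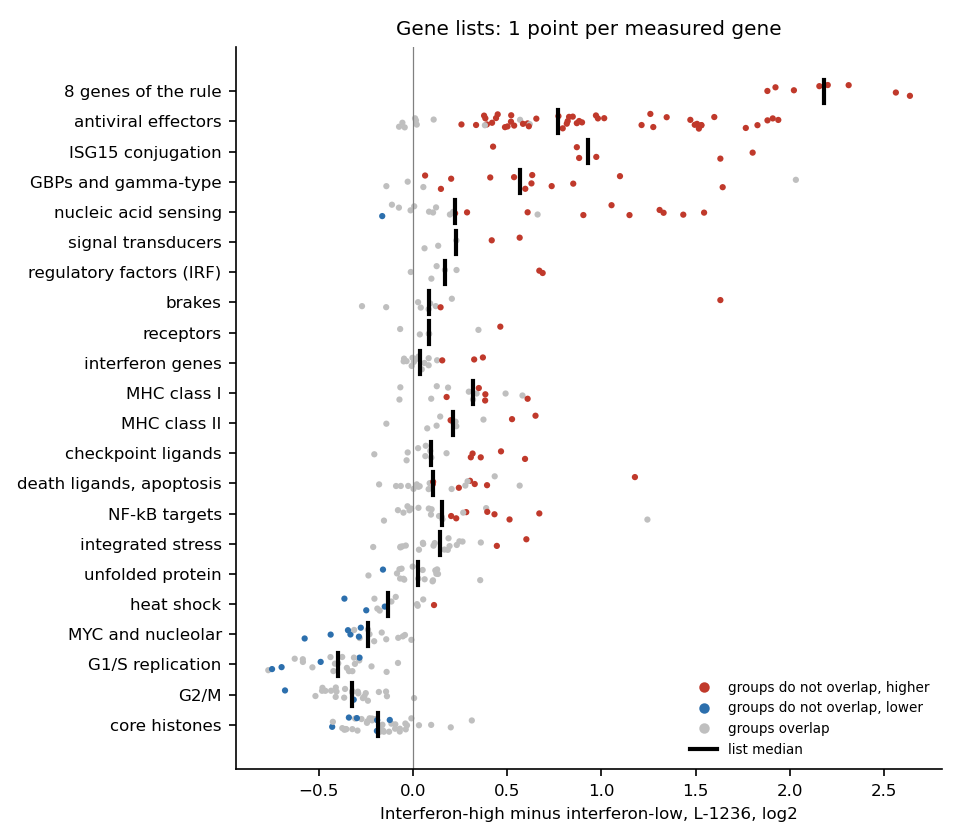
High minus low difference in L-1236 (horizontal axis, log2) of each measured gene (points) in 22 gene lists, with the list median as a black bar. Red and blue points are genes whose 3 high and 3 low arrays do not overlap, grey points those that do; the medians run from 2.18 for the 8 genes of the rule and 0.93 for ISG15 conjugation to -0.40 for G1/S replication genes.

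Outside the interferon and MHC class I lists, the 12 called genes with the highest differences had varied functions. Absence from these lists does not mean that interferon does not induce a gene. Of the 24 called genes outside the lists, 22 have a promoter, and 3 of these hold the GAAA pair upstream, TNFSF10 and LAP3 among them. Whether interferon induced any of the 24 was not tested. TRANK1, a large protein with ankyrin repeats, had 7.51, 8.06 and 8.28 on the high arrays and 6.79, 6.43 and 6.88 on the low arrays, a difference of 1.25 (SE 0.20). TNFSF10, the death ligand TRAIL, had 9.18, 9.70 and 9.89 against 7.92, 8.45 and 8.87, a difference of 1.18 (SE 0.26). FBXO39, an F-box protein, differed by 0.92, with 7.30 on knockdown array 1 close to the 7.21 of knockdown array 3. LAP3, a leucine aminopeptidase, differed by 0.79, DAPP1, a B-cell signalling adaptor, by 0.70 and RIPOR2 by 0.68.

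XRN1, the main cytoplasmic 5′ to 3′ exoribonuclease, differed by 0.68 (9.94 to 10.29 against 9.21 to 9.57) and ARG2, the mitochondrial arginase, by 0.67. RNF213, a large ubiquitin ligase, differed by 0.67 on its brighter probe set and by 0.72 on its second. KRCC1 differed by 0.67, although most of this came from the control arrays (0.96, against 0.18 within the knockdown arrays). ZNFX1, a helicase that senses viral RNA at mitochondria, differed by 0.66, with 10.38, 10.77 and 10.78 against 9.94, 9.89 and 10.13. Beyond these 11 and CTSS, the remaining 12 of the 24 differed by 0.59 to 0.65.

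Immune ligands on the tumour cell surface and targets of NF-kB were raised in part. CD274, the checkpoint ligand PD-L1, had 10.28, 10.20 and 10.18 on the high arrays and 9.75, 9.78 and 9.72 on the low arrays. Its difference of 0.47 (SE 0.07) is below the size limit, and the SD within the groups was 0.05 and 0.03 (n = 3 each). It was named because its groups do not overlap, so these values carry no test. LGALS9, galectin-9, differed by 0.59 and was called, and TNFSF9, the ligand of 4-1BB, by 0.36. In all, 5 of 14 checkpoint and costimulatory ligands were higher without overlap, with a median of 0.09. Of 23 NF-kB targets 7 were, among them TNF (0.51) and its feedback inhibitor TNFAIP3 (0.43), with a median of 0.15.

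Of 22 death ligands and apoptosis genes 7 were higher without overlap, TNFSF10 alone being called, followed by CASP10 (0.39) and the death receptor FAS (0.33). In the integrated stress response, which EIF2AK2 can start by phosphorylating eIF2, 2 of 20 genes were higher without overlap, against 5.6% of all named genes. The mean of this list overlapped between the groups, and a link to EIF2AK2 was not tested. These were DDIT3, the transcription factor CHOP (9.64, 9.03 and 9.49 against 8.93, 8.63 and 8.80, a difference of 0.60), and PPP1R15A, a regulatory subunit of the phosphatase that acts on eIF2 (0.45). The unfolded protein response list had 0 higher and 1 lower of 19. CCL5, a chemokine of the NF-kB list picked after its values were seen, had 11.33 and 11.35 on knockdown array 2 and control array 3, but 9.26 on knockdown array 1 lay inside the low range of 8.92 to 9.80.

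Of the 16 genes called lower, 3 are in the G1/S and G2/M lists and the largest difference was that of UHRF1. UHRF1, which carries DNA methylation through replication, had 8.47, 9.12 and 8.56 on the high arrays and 9.31, 9.94 and 9.74 on the low arrays, a difference of -0.95 (SE 0.21). Its second, dimmer probe set differed by 0.01 and overlapped. PCLAF, a PCNA-binding factor, differed by -0.80 and also by -0.56 on its second probe set. HELLS, a chromatin remodeller that works with DNA methylation, had 8.05, 8.21 and 8.03 against 8.41, 9.12 and 8.88, a difference of -0.71 (SE 0.17). CKS2, a cyclin-dependent kinase subunit, differed by -0.78.

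The 3 genes of the cell cycle lists were TYMS, RRM2 and CCNA2. TYMS, thymidylate synthase, had 9.22, 9.86 and 9.50 on the high arrays and 9.90, 10.38 and 10.54 on the low arrays, a difference of -0.75 (SE 0.20). RRM2, the small ribonucleotide reductase subunit, had 9.23, 9.44 and 9.25 against 9.58, 10.17 and 10.27, a difference of -0.70 (SE 0.17). CCNA2, cyclin A2, had 9.20, 9.14 and 9.05 against 9.27, 10.13 and 10.03, a difference of -0.68 (SE 0.21). For CCNA2 the low value of control array 1 thus nearly meets the high arrays.

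All 23 measured genes of the G1/S list had a lower mean on the high arrays, with a median of -0.40, but only 4 were lower without overlap and 2 were called. The list mean was 8.86, 9.17 and 8.92 on knockdown 1, knockdown 2 and control 3 and 9.05, 9.55 and 9.62 on control 1, control 2 and knockdown 3, so control array 1 lies inside the range of the high arrays. Of 24 G2/M genes, 23 had a lower mean, 2 without overlap, with a median of -0.32. Their list mean overlapped further, since control array 1 had the lowest of all L-1236 values (8.93). Core histone genes, transcribed in S phase, were lower in mean in 36 of 40 cases, 6 without overlap, with a median of -0.18. The 17 MYC and nucleolar genes all had a lower mean, 6 without overlap, led by ODC1, the first enzyme of polyamine synthesis (-0.57). Control array 1 is also the array with the narrowest spread over probe sets, and the part of that in these list values was not tested.

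**Figure D5:**
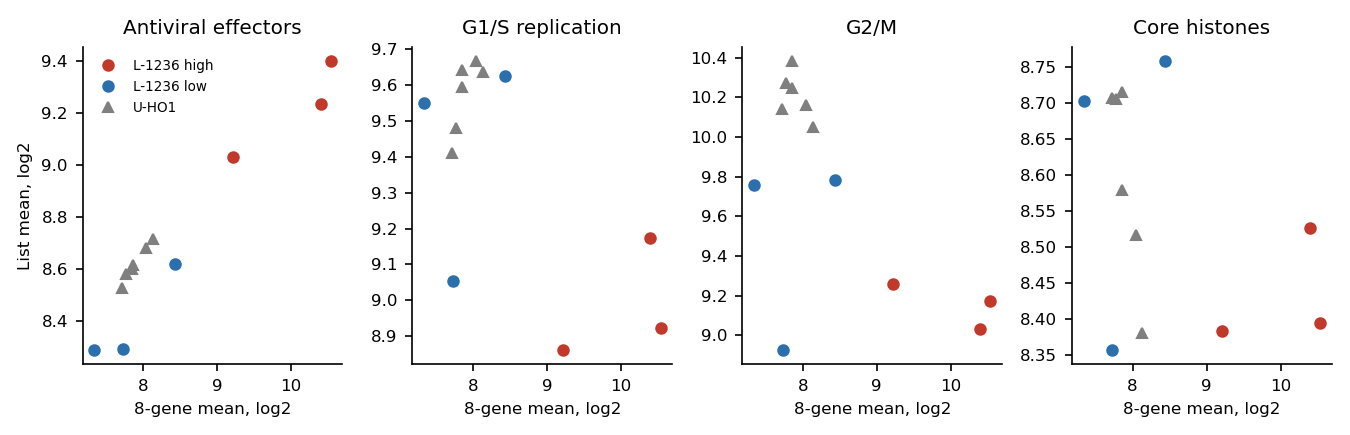
Mean log2 level of 4 gene lists (vertical axes, each with its own range) against the 8-gene mean (horizontal axes, log2) on the 6 L-1236 arrays (red, interferon-high; blue, interferon-low) and the 6 U-HO1 arrays (grey triangles). Antiviral effectors separate the L-1236 groups (9.03 and above against 8.62 and below), while for G1/S, G2/M and core histone genes control array 1, the blue point at an 8-gene mean of 7.73, lies within or below the red points.

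The other genes lower on the high arrays were of mixed kind. PLAT, tissue plasminogen activator, differed by -0.76, with 10.24 and 9.74 on knockdown array 2 and control array 3 but 10.90 on knockdown array 1, just below the low arrays. CCL22, a chemokine of Hodgkin cells that attracts Th2 and regulatory T cells, had 8.31, 8.64 and 8.51 on the high arrays and 8.83, 9.69 and 9.12 on the low arrays, a difference of -0.73 (SE 0.20). The related CCL17, picked after its values were seen, differed by 0.06 with overlap. SNORA75 (-0.90), a guide RNA for pseudouridine, and RNU5E-1 (-0.70), a variant of the U5 spliceosomal RNA, are short RNAs. STPG4 differed by -0.74, mostly in the control arrays (-1.14, against -0.14 within the knockdown arrays). The remaining 4 of the 16, the mast cell protease CMA1, the purine salvage enzyme HPRT1, SNORD4B and an uncharacterised locus, differed by -0.62 to -0.59.

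Markers of other blood and stromal cells were flat. Of 12 T-cell, 10 NK-cell, 7 plasmacytoid dendritic cell and 10 fibroblast or endothelial markers 0 were without overlap, and of 11 monocyte and 11 B-cell markers 2 and 1 were, by at most 0.14. The mean of each of these lists lay between 6.2 and 7.6 on all L-1236 arrays and overlapped between the groups. Their medians ran from -0.05 to 0.01. Of 16 genes of Hodgkin cell identity, 4 were higher without overlap and 0 were called, with a median of 0.06, among them JUNB (0.42), EBI3 (0.39) and CD40 (0.31). The defining markers TNFRSF8 (CD30), FUT4 and IRF4 overlapped between the groups, with differences of -0.07, -0.04 and -0.01, whereas TRAF1 was dim on all 6 L-1236 arrays (6.75 to 7.23, against 9.85 to 10.46 in U-HO1).

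A principal component analysis placed the 6 arrays along axes of common variation. The first principal component held 35.02% of the variance and set control array 1 (score 0.125) against control array 2 (-0.109) and knockdown array 3 (-0.131). The second held 27.2%, with scores of 0.0297, 0.0800 and 0.0827 on the high arrays and -0.117, -0.0998 and 0.0246 on control 1, control 2 and knockdown 3, so that knockdown array 3 lay beside knockdown array 1 and far from control arrays 1 and 2. After removal of the brightest probe set of every measured gene of the interferon and MHC class I lists, the second component held 24.1%. After removal of the probe sets called higher as well, it held 23.3%. Other probe sets of the list genes stayed in unless they were called higher. The high arrays again lay above the low arrays in both cases, a direction that the choice of sign favours.

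U-HO1 offered the same measures in arrays that the rule did not use. Each probe set was regressed on the 8-gene mean over the 6 U-HO1 arrays with limma, leaving out the 8 genes, and slopes are log2 change per log2 unit of that mean. At an adjusted p under 0.05, 0 of 32313 probe sets passed (limma, Benjamini-Hochberg; smallest adjusted p 0.105), and 3396 had an unadjusted p under 0.05, where 1615.65 would fall below it if no probe set followed the mean. With 1 probe set per gene, 125 of 18396 genes passed, and without control array 2, 41 probe sets passed. Control array 1 and knockdown array 2 had 8-gene means of 8.04 and 8.13, and the other U-HO1 arrays had 7.72 to 7.86. The slopes therefore mainly set those arrays against the rest. The 0.41 span of the mean in U-HO1 makes every slope an extension beyond the data, and these p-values measure only the spread between these arrays.

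Among the antiviral effectors, 44 of 55 had a positive slope in U-HO1, against 51.4% of all named genes, and 16 had an unadjusted p under 0.05 with a positive slope, against 6.64%. None of the 55 passed the adjusted test. XAF1 had a slope of 1.08 (SE 0.23, unadjusted p = 0.00125 by limma) and IFI44L of 1.44 (SE 0.39), while MX2 had 0.07 (SE 0.26) and the sensors RIGI and IFIH1 had -0.40 and -0.33. Of the 75 genes called higher in L-1236, 47 had a positive slope and 14 of these an unadjusted p under 0.05. The slope was positive for 36 of the 51 in the interferon and MHC class I lists. Outside those lists it was positive for 11 of 24 (45.8%), which is not above the 51.4% of all named genes. ZNFX1 was the lowest in p among the genes named from outside the lists (slope 1.29, SE 0.23, unadjusted p = 0.000357 by limma).

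On the lower side, signs in U-HO1 were mixed. Of the 16 genes called lower in L-1236, 8 had a positive and 8 a negative slope in U-HO1. G1/S genes had positive slopes in 20 of 23 cases and MYC and nucleolar genes in 16 of 17. G2/M genes had negative slopes in 20 of 24 cases and core histones in 33 of 40, against 48.6% of all named genes, 20 of the histones with an unadjusted p under 0.05 where 4.01% of named genes did so. The difference between the lines was not tested.

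The genes with the smallest p in U-HO1 were in none of the interferon lists. The smallest p with a positive slope were those of RRAD, a small GTPase (slope 3.02), SLCO2B1, an organic anion transporter, NIP7, a ribosome biogenesis factor (1.79), FAM43A (4.22) and EXOSC4, an exosome subunit (1.85). Those with a negative slope were the histone genes H3C12 (-2.54), H2BC13 (-1.93), H2BC4 (-2.06), H2BC7 (-2.96) and H1-10 (-2.40). RRAD was at 8.06 and 8.54 on control array 1 and knockdown array 2 and at 7.27 to 7.58 on the other U-HO1 arrays. H2BC4 was at 7.72 and 7.46 on the former and at 8.08 to 8.28 on the others. Of the 125 genes that passed with 1 probe set per gene, 0 are in the interferon lists, 8 are in the core histone list and 1 was also called in L-1236.

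Finally, the comparison for which the series was designed was fitted in L-1236 with the interferon state as a term. For knockdown minus control, 0 probe sets reached the adjusted p limit of 0.05 and 0 lay past the criteria in the series description (FDR of at most 25% and 1.5-fold) among 32321 (limma; smallest adjusted p 0.891), with 1497 at an unadjusted p under 0.05 where 1616.05 would fall below it by number alone. Without the state term the counts were also 0 and 0, with 1613 at an unadjusted p under 0.05 and a smallest adjusted p of 0.541. GATA3 had a knockdown minus control difference of 0.10 (SE 0.26, adjusted p = 0.946 by limma) with the term.

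The lowest p values in that fit belonged to small differences. Higher on the arrays labelled knockdown were IGBP1P1 (0.41), MSL3B (0.54), TPM4, a tropomyosin (0.32), SMC1B, a meiotic cohesin subunit (0.34), and AP2M1, an adaptor of clathrin-coated pits (0.32). Lower were OR2L8 (-0.50), OR2D2 (-0.33), both olfactory receptor genes, the GTPase RAC1 (-0.41), ANP32A-IT1 (-0.35) and RPL23AP32 (-0.39). Each had an adjusted p of 0.891 in limma, so none passed.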

How the data were processed

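The deposited series table holds 1 normalized value per probe set and array for 12 arrays. The authors worked in R 2.8.1 with Bioconductor, per the submitters' processing notes; which background correction and normalization they applied is not given in the sources used here. The deposited values were read as log2 from their range, which no header states, so fold sizes rest on that reading. Of 32321 probe sets, 19158 have 1 gene symbol in the platform annotation, 1388 several and 11775 none; 19128 were matched to RefSeq by Entrez identifier. Each of 18404 genes is represented by its brightest probe set over the 12 arrays.

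Interferon-high and interferon-low arrays were computed from the 8-gene mean. Differences with standard errors, U-HO1 slopes and the knockdown comparison were fitted with limma 3.58.1 in R 4.3.3, two-sided, with Benjamini-Hochberg adjustment over all probe sets tested. A gene was called, as a description, where the 3 high and 3 low arrays did not overlap and the means differed by at least 1.5-fold. Exact permutation tests used scipy 1.17.1 in Python 3.11.15. The fits were tested on simulated data. Replicates are described as independent samples, with no statement of separate cultures, and no array equals another. The number of arrays limits the precision.

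Members and gene lists were chosen with earlier results of these data known. Named genes are up to 4 of each interferon signalling list and 10 effectors by size of difference, the 12 highest and 12 lowest called genes outside the interferon and MHC class I lists, up to 3 of every other list without overlap, and the 5 smallest p each way in each test. The alternatives were quantile normalization, median centring, a minimum mean of 6, 1 probe set per gene, a 2-fold limit, other terms, a replicate block and leaving out each array.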

Additional observations from a re-analysis of the deposited data

How the results depend on the processing

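The 113 probe sets higher and 35 lower on the interferon-high arrays became 117 and 41 after quantile normalization, 111 and 25 after median centring and 112 and 33 without dim probe sets. A 2-fold limit left 45 higher and 1 lower, and 1 probe set per gene left 83 and 16. Leaving out each array in turn gave 85 to 178 higher and 20 to 255 lower. Non-overlap is easier to meet with fewer arrays, so these counts are not directly comparable with 113 and 35. In U-HO1, where 0 probe sets passed, 3 passed after quantile normalization, 125 genes with 1 probe set per gene and 0 to 41 when each array was left out; median centring, the dim filter and the label as a term gave 0. The knockdown comparison gave 0 by both criteria under every alternative run, including 1 probe set per gene, quantile normalization, the 8-gene mean as a term and no interferon term. The cause of these shifts was not tested. Medians of the lists kept their sign under both scalings except GATA3 and Th2 genes (-0.01, 0.00 after quantile normalization) and monocyte markers, both near 0.

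Replicate numbers are shared across labels. Deviations from the label means of arrays with the same number correlated at 0.17, -0.40 and -0.22 in L-1236 and -0.17, 0.06 and 0.32 in U-HO1. In L-1236 each number holds 1 interferon-high and 1 interferon-low array, so the state sets their deviations apart. The correlations therefore cannot decide whether L-1236 arrays of the same number are pairs. In the main fits the arrays were not taken as pairs. With the replicate block, 123 probe sets were higher and 54 lower in L-1236 (same sign in all 3 numbers), 6 passed in U-HO1 and 0 in the knockdown comparison.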

Other observations

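Small nucleolar RNAs guide chemical modification of ribosomal RNA. Of 192 such genes recognised by name, 31 were lower without overlap and 1 was higher, against 4.25% and 5.6% of all named genes, and 2 were called lower (SNORA75 and SNORD4B); their median was -0.08. In U-HO1 125 of the 192 had a positive slope on the 8-gene mean, against 51.4% of all named genes. Of these, 32 had an unadjusted p under 0.05, against 6.64% of all named genes. The sign is opposite to the lower levels in L-1236, and the difference between the lines was not tested. Of 189 microRNA genes, 5 were higher and 7 lower without overlap. Both groups were picked by name after values were seen.

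No gene of the ribosomal, oxidative phosphorylation, cholesterol or heat shock lists was called, and the list means overlapped between the groups. Of 57 cytosolic ribosomal protein genes 9 were lower without overlap and 0 higher, with a median of -0.08 that was -0.02 after quantile normalization. Of 66 oxidative phosphorylation genes 5 were lower and 2 higher without overlap, with a median of -0.06. Of 19 cholesterol synthesis genes 4 were lower without overlap, led by MVK (-0.38), MVD (-0.33) and HMGCS1 (-0.30). In U-HO1 17 of the 19 had a negative slope, against 48.6% of all named genes. Of 12 heat shock genes 3 were lower without overlap, led by HSPD1 (-0.36), and 1 was higher. Their median was -0.13, and -0.07 after quantile normalization. All 12 had a positive slope in U-HO1, against 51.4% of all named genes. GAPDH, often taken as a reference gene, was at 12.95 to 13.05 on the high arrays and 13.11 to 13.29 on the low arrays. Its difference was -0.23, and -0.12 after quantile normalization.

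The integrated stress list, of which 2 genes were higher without overlap in L-1236, had 12 negative and 8 positive slopes in U-HO1. Of all named genes 48.6% had a negative slope there. In this list 7 of the negative slopes had an unadjusted p under 0.05, against 4.01% of all named genes. Of the probe sets called in L-1236, 29 higher and 19 lower have no single gene symbol and were not named.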
